A study of Mus musculus with 24 samples.

Results

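The regions described here are peaks of the transcription factor Pax6 that coincide with peaks of the promoter mark H3K4me3 in the same tissue, in newborn mouse lens and in embryonic mouse forebrain. They were chosen by measured values, namely the deposited Pax6 and H3K4me3 peak calls: a Pax6 peak was taken when it overlapped an H3K4me3 peak of its own tissue by at least 1 bp. In lens this took 219 of 3815 Pax6 peaks, which is 5.74%, and in forebrain 193 of 3536, which is 5.46%, so 412 of 7351 peaks over both lists. The overlap with H3K4me3 is therefore the selection and not a result. Of the 219 lens peaks, 55 lay in H3K4me1 islands with very many control reads, and they are set apart below. The lens values are given for the remaining 164 and for all 219.

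All tissue came from CD-1 mice. Lens was dissected at P1 (newborn, postnatal day 1) and forebrain at E12.5 (embryo), and no labelled group carries a mutation or a treatment. Chromatin immunoprecipitation with sequencing (ChIP-seq) covered Pax6, H3K4me3, H3K27ac, H3K4me1, H3K27me3 and RNA polymerase II in both tissues, open chromatin was mapped by FAIRE in lens only, and RNA was sequenced from forebrain and from the epithelium and fibers of the lens. The forebrain Pax6 list is tied by the labels to 2 libraries and every other list to 1; the sources used here do not say how those 2 were combined, and no value per library could be had. Tissue and age change together between the 2 groups and cannot be told apart. The samples are whole dissected tissues, so a mark and a Pax6 peak at the same place need not come from the same cells.

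Pax6 is a paired-domain and homeodomain transcription factor needed for eye and forebrain development. H3K4me3 is laid down around active and poised transcription start sites, H3K27ac marks active promoters and enhancers, H3K4me1 is typical of enhancers and of the flanks of promoters, and H3K27me3 is the mark of Polycomb repression. Promoters that carry H3K4me3 together with H3K27me3 are called bivalent and are common at developmental genes. RNA polymerase II is enriched just downstream of active start sites.

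Each mark gave 1 list per tissue, so there is no spread between replicates and no test. Shares of peaks are given with exact Clopper-Pearson 95% intervals, which cover counting error within these lists only, since neighbouring peaks share a library and peaks are not replicates. The fold enrichment of a peak is the authors' own value, over their control at the peak summit, and is used to describe peaks within a list. The H3K4me3 lists held 16289 peaks (14.0 Mb) in lens and 15407 (13.2 Mb) in forebrain. The number of reads behind the peak lists is unknown here.

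The lens set held a group of weak peaks in stretches where the control library itself had many reads. A lens H3K4me1 island had a median of 15 control reads per kb, and islands above 10 times that median (150 reads per kb) were called control-rich; 18 of 20811 islands were. In these 18 islands lay 57 lens Pax6 peaks, and 55 of the 57 overlapped H3K4me3. That was 25.1% of all lens Pax6 peaks at H3K4me3 (95% interval 19.5 to 31.4), against 1.49% of the whole lens Pax6 list (1.13 to 1.93). The corresponding limit for lens H3K27me3 islands was 50 control reads per kb, and none of the 4 islands above it held a lens Pax6 peak. In forebrain, 14 H3K4me1 islands and 3 H3K27me3 islands passed their limits, and 0 of the 193 forebrain peaks (0 to 1.89%) lay in them.

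Most of the 55 came from 1 place. The stretch chr9:3000012-3038297 held 44 lens Pax6 peaks, 43 of them at H3K4me3, inside 1 island with 684 control reads per kb and a ChIP to control ratio of 1.77. The same stretch held 40 lens and 48 forebrain H3K4me3 peaks and 14 FAIRE regions, but 0 forebrain Pax6 peaks. Another 4 lay in chr2:98502306-98507509, in 2 islands with 469 and 1292 control reads per kb. The other 8 were single peaks on chromosomes 2, 6, 9, 11, 12, 15, 18 and X.

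By strength these 55 did not overlap the rest. Their Pax6 fold enrichment ran from 1.54 to 2.37 with a median of 1.87, while that of the 164 ran from 4.13 to 31.5 with a median of 6.90. The H3K4me3 peaks under the 55 were also low, with a fold of 1.84 to 3.06 (median 2.33), against 3.98 to 38.0 (median 14.0) under the 164. Their q-values gave no such separation: the median -log10 q was 14.0 for the 55 and 10.1 for the 164. Outside H3K4me3 and these islands, only 7 of 3594 lens Pax6 peaks had a fold under 3. The part of control reads in the calling of these peaks was not tested.

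**Figure D1:**
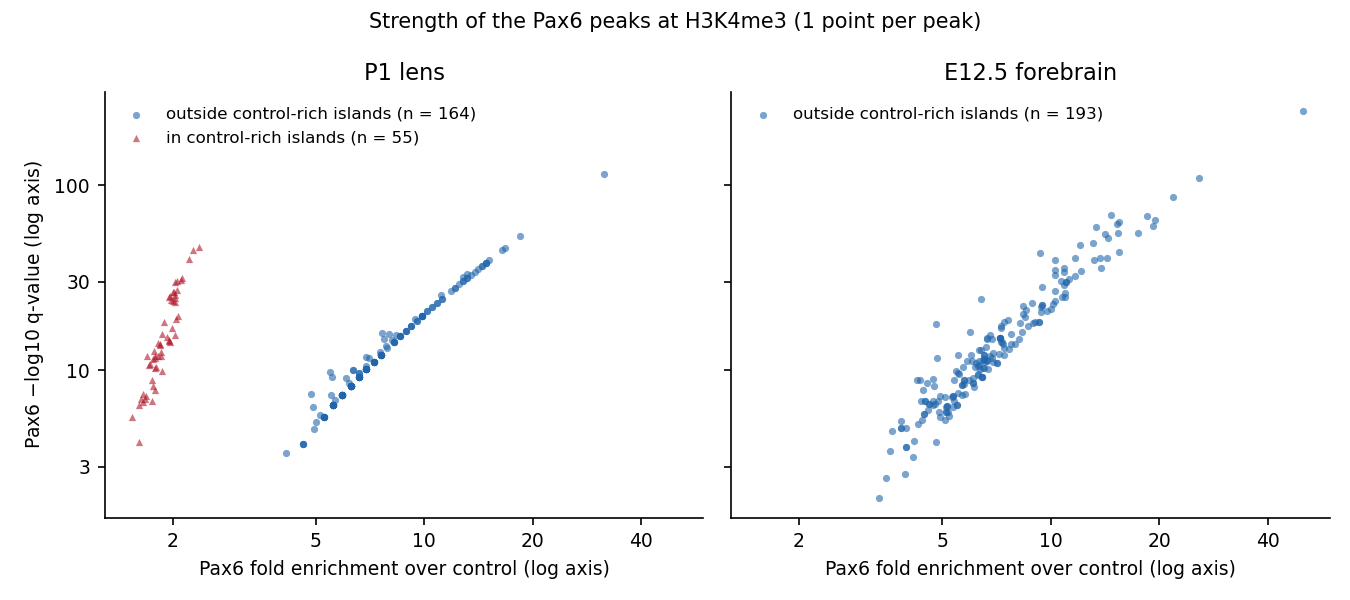
Pax6 fold enrichment over control (x axis, log scale) against -log10 q-value (y axis, log scale) for each Pax6 peak at H3K4me3 in lens (left) and forebrain (right). The 55 lens peaks in control-rich islands (red triangles) lie at folds of 1.54 to 2.37, apart from the 164 others, whose lowest fold is 4.13.

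Apart from the 55, Pax6 peaks at H3K4me3 were about as strong and as wide as Pax6 peaks elsewhere. In lens the median fold was 6.90 at the 164 and 6.90 at the 3594 Pax6 peaks outside H3K4me3, and the median widths were 279.5 and 285 bp. In forebrain the median fold was 6.52 (range 3.34 to 50.0) at the 193 and 6.85 at the 3342 outside, with median widths of 246 and 254 bp. Folds of at least 10 were reached by 32 of 164 peaks in lens and by 41 of 193 in forebrain. The upper quartile of the fold was 9.25 at the 164 and 9.20 at the lens peaks outside H3K4me3. In forebrain it was 9.30 at the 193 and 9.07 outside. Of the strongest 100 lens Pax6 peaks 2 were at H3K4me3, beside 5.74% of the whole lens list. That 5.74% includes the 55, with folds of only 1.54 to 2.37, and would be lower without them. Of the strongest 100 forebrain ones 5 were, near the 5.46% of the whole forebrain list. Across sites, Spearman's rho between the Pax6 fold and the fold of the H3K4me3 peak was -0.08 over the 164 lens sites and -0.08 over the 193 forebrain sites, as a description of sites that share their libraries.

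Many Pax6 summits sat near the border of the H3K4me3 peak, and the overlap rule itself limits how far outside one can lie. Whether they sat nearer to it than the widths of the peaks alone would place them was not tested. In lens, 122 of the 164 summits (74.4%, 67.0 to 80.9) were inside the H3K4me3 peak, at a median of 197.5 bp from its nearer edge, and 42 were outside it, at a median of 70 bp and at most 169 bp. In forebrain, 147 of 193 summits (76.2%, 69.5 to 82.0) were inside at a median of 246 bp, and 46 outside at a median of 52.5 bp and at most 190 bp. With all 219 lens peaks the inside share was 80.8% (75.0 to 85.8), since all 55 control-rich peaks had their summit inside. The H3K4me3 peaks under the members had a median width of 937 bp in lens and 1009 bp in forebrain, so a summit could lie far from an edge only in the wide ones; 4 lens and 7 forebrain summits lay at least 1000 bp inside. In 6 lens and 6 forebrain peaks the summit lay between 2 H3K4me3 peaks that the Pax6 peak touched on both sides.

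**Figure D2:**
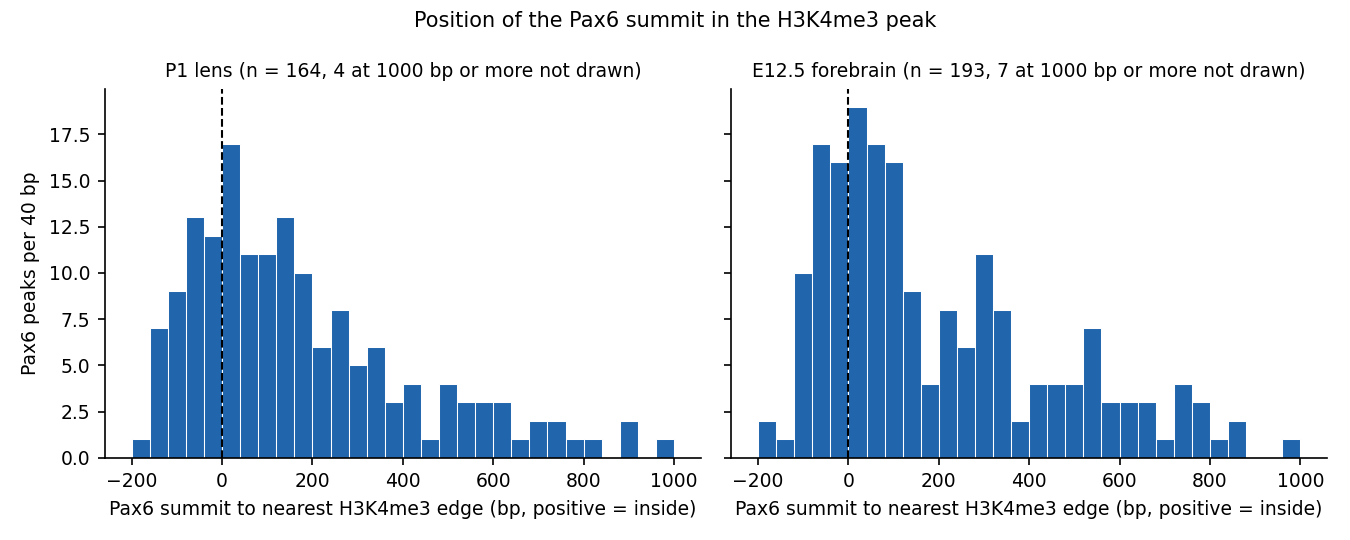
Distance of the Pax6 summit from the nearest edge of the H3K4me3 peak it overlaps (x axis, bp, positive inside) and the number of Pax6 peaks per bin (y axis), for the 164 lens peaks outside control-rich islands (left) and the 193 forebrain peaks (right). The counts are highest within 100 bp of the edge, which is drawn as a dashed line, and 42 lens and 46 forebrain summits lie outside.

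Seen from the promoter side, few H3K4me3 peaks carried Pax6. Outside control-rich islands, 172 of 16234 lens H3K4me3 peaks (1.06%, 0.908 to 1.23) and 200 of 15349 forebrain ones (1.30%, 1.13 to 1.50) overlapped Pax6. Each held 1 such peak. The share was higher among wide H3K4me3 peaks. In lens it was 0.739% (0.499 to 1.05) in the narrowest quartile and 1.60% (1.24 to 2.04) in the widest, and in forebrain 0.782% (0.528 to 1.11) and 2.29% (1.84 to 2.82). A wide peak offers more bases to overlap: the median width was 320 bp in the narrowest and 1444 bp in the widest lens quartile, so the share per peak rose less than the width. The forebrain quartiles had median widths of 315 and 1441 bp.

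**Figure D3:**
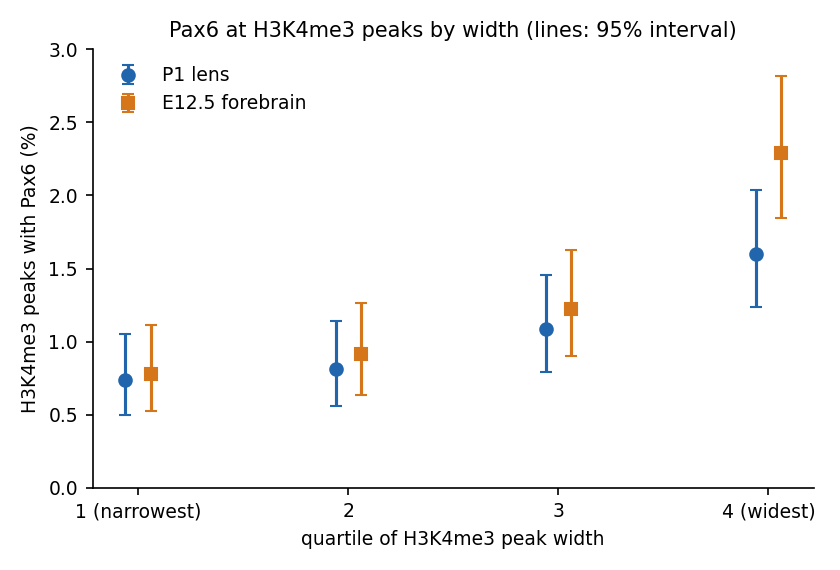
Share of H3K4me3 peaks that overlap Pax6 (y axis, %) by quartile of H3K4me3 width (x axis), in lens (circles) and forebrain (squares), with 95% Clopper-Pearson intervals as lines. The widest quartile holds the highest share in both tissues, 1.60% in lens and 2.29% in forebrain.

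H3K27ac lay at most of these Pax6 peaks. In lens it covered 118 of the 164 (72.0%, 64.4 to 78.7), or 141 of all 219 (64.4%, 57.7 to 70.7), against 12.2% of the whole lens Pax6 list. In forebrain it covered 153 of the 193 (79.3%, 72.9 to 84.8), against 19.0% of the whole forebrain Pax6 list. Pax6 peaks outside H3K4me3 had it in 9.04% (lens) and 15.6% (forebrain). Counted over whole H3K4me3 peaks, H3K27ac was found at 144 of 172 with Pax6 in lens (83.7%, 77.3 to 88.9) against 69.0% of those without, and at 180 of 200 in forebrain (90.0%, 85.0 to 93.8) against 78.3%. The H3K4me3 peaks with Pax6 were wider, with medians of 887.5 against 745 bp in lens and 1001.5 against 736 bp in forebrain, and a wide peak can touch another list more easily; the part of width was not tested. When the shared bases had to reach 0.5 of the shorter interval, the lens share of H3K27ac was 53.4% outside control-rich islands (63 of 118). With the control-rich peaks it was 49.7% (86 of 173), against 5.40% of the whole lens list. In forebrain it was 68.0% (100 of 147), against 12.9% of the whole forebrain list.

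RNA polymerase II was also called at more of these peaks than of other Pax6 peaks, at lower shares. It was called at 30 of the 164 lens peaks (18.3%, 12.7 to 25.1), or 30 of all 219 (13.7%, 9.44 to 19.0), against 1.10% of the whole lens Pax6 list. In forebrain it was called at 25 of 193 (13.0%, 8.56 to 18.5), against 1.02% of the whole list. Over whole H3K4me3 peaks it was found at 26.2% (19.8 to 33.4) of those with Pax6 and 19.2% of those without in lens, and at 19.0% (13.8 to 25.1) and 10.2% in forebrain, with the same difference in width. Of the members with polymerase, 28 of 30 in lens and 25 of 25 in forebrain also had H3K27ac.

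H3K4me1 lay at fewer of these peaks than of other Pax6 peaks when an overlap of 1 bp was asked for. In lens it covered 28 of the 164 (17.1%, 11.7 to 23.7), against 43.2% of the Pax6 peaks outside H3K4me3 and 42.9% of the whole list. With the control-rich peaks the lens count was 83 of 219 (37.9%, 31.5 to 44.7), because an H3K4me1 island defines that group and all 55 therefore carry it. In forebrain H3K4me1 covered 83 of 193 (43.0%, 35.9 to 50.3), against 63.7% outside H3K4me3 and 62.5% of the whole list. With gaps of up to 1 kb counted as overlap, for H3K4me3 and H3K4me1 alike, the forebrain difference turned round: H3K4me1 was then found at 250 of 299 peaks (83.6%) against 66.1% of the whole list. In lens the share outside control-rich islands was then 42.0% (103 of 245), near the 45.3% of the whole list. H3K4me3 peaks without Pax6 overlapped H3K4me1 in 23.3% in lens and 65.5% in forebrain, over intervals wider than a Pax6 peak.

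Open chromatin in lens gave a different order. FAIRE regions covered 48 of the 164 lens peaks (29.3%, 22.4 to 36.9), against 37.0% of lens Pax6 peaks outside H3K4me3, 37.5% of the whole lens list and 16.5% of lens H3K4me3 peaks without Pax6. With all 219 the share was 46.6% (102 peaks, 39.8 to 53.4), since 54 of the 55 control-rich peaks overlapped a FAIRE region. At the 193 forebrain peaks the lens FAIRE list covered 49 (25.4%, 19.4 to 32.1), near the 27.9% of the whole forebrain list. With gaps of up to 1 kb the lens members were no longer below the others. Their share was then 49.0% (120 of 245, 42.6 to 55.4), against 43.1% of the lens Pax6 peaks farther from H3K4me3. The forebrain share was then 41.5% (35.8 to 47.3), against 36.6% of the whole list. Both comparison shares lay within the members' intervals.

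**Figure D4:**
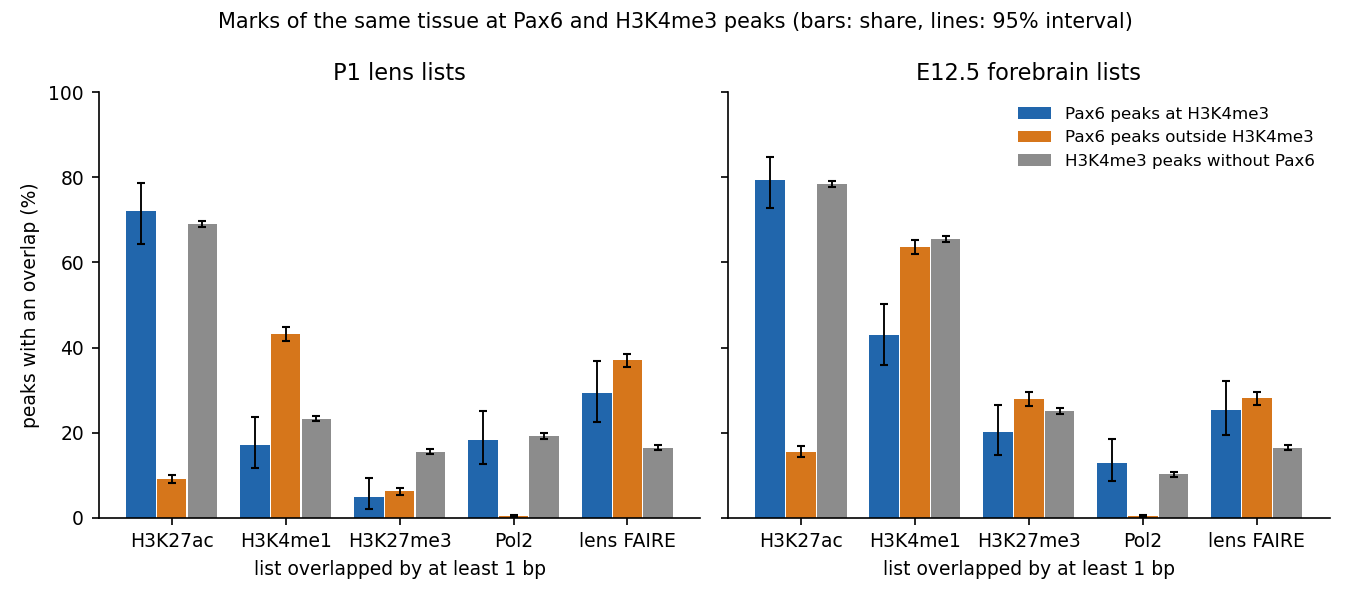
Share of peaks (y axis, %) that overlap each list of marks (x axis) by at least 1 bp, with 95% Clopper-Pearson intervals as lines, for lens (left) and forebrain (right), outside control-rich islands. H3K27ac covers 72.0% and 79.3% of Pax6 peaks at H3K4me3 (blue), beside 69.0% and 78.3% of the wider H3K4me3 peaks without Pax6 (grey), while H3K4me1 covers 17.1% and 43.0%, below its share at Pax6 peaks outside H3K4me3 (orange).

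The marks combined in a few ways. The same combinations are not given for the whole Pax6 lists, so these counts show no trait particular to the members. In lens, 70 of the 164 had H3K27ac alone beside H3K4me3, 27 had H3K27ac with RNA polymerase II, 17 had H3K27ac with H3K4me1, and 32 (19.5%, 13.7 to 26.4) had none of H3K27ac, H3K4me1, H3K27me3 and polymerase. In forebrain, 63 of 193 had H3K27ac alone, 37 had H3K27ac with H3K4me1, 16 had H3K27ac with H3K4me1 and H3K27me3, 14 had H3K27ac with polymerase, and 17 (8.81%, 5.22 to 13.7) had none of the 4.

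Overlap with H3K27me3 in addition to H3K4me3, the bivalent combination, was found at 8 of the 164 lens peaks (4.88%, 2.13 to 9.39), or 3.65% of all 219, near the 6.06% of the whole lens Pax6 list. Lens H3K4me3 peaks without Pax6 had it in 15.6%, but over wider intervals, with a median of 745 bp against 279.5 bp for the 164 Pax6 peaks. In forebrain these medians were 736 and 246 bp, so in neither tissue are the 2 shares like for like. In forebrain, 39 of 193 (20.2%, 14.8 to 26.6) overlapped H3K27me3, against 27.9% of Pax6 peaks outside H3K4me3, 27.5% of the whole list and 25.0% of H3K4me3 peaks without Pax6. With gaps of up to 1 kb the forebrain members were no longer below the list. Their share was then 124 of 299 (41.5%, 35.8 to 47.3), and the 37.0% of the whole list lay within that interval. In lens the share was then 34 of 245 (13.9%, 9.81 to 18.8) outside control-rich islands, above the 8.81% of the whole list. The forebrain islands involved were shorter than those under other Pax6 peaks, with a median width of 8200 bp against 15400 bp and a median ChIP to control ratio of 4.21 against 5.07.

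The 39 forebrain peaks in H3K27me3 carried the active mark at the same share as the rest. H3K27ac overlapped 31 of the 39 (79.5%, 63.5 to 90.7) and 122 of the other 154 (79.2%, 72.0 to 85.3). H3K4me1 overlapped 23 of the 39 (59.0%, 42.1 to 74.4) and 60 of the 154 (39.0%, 31.2 to 47.1). In lens, 3 of the 8 peaks in H3K27me3 and 115 of the other 156 had H3K27ac, a group too small for a close share (8.52% to 75.5% for the 8). Since the forebrain holds many cell types, cells with H3K27ac and cells with H3K27me3 at such a site cannot be told apart.

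The strongest forebrain peak of this kind was chr7:116318777-116319198, with a Pax6 fold of 25.8, the 27th highest of the whole forebrain list. Its H3K27me3 island was 66800 bp long with 6220 ChIP reads and 515 control reads, a ratio of 8.83. H3K27ac and H3K4me1 of forebrain overlapped it too. Under this Pax6 interval lens had H3K4me1, H3K27me3 and a FAIRE region but neither Pax6 nor H3K4me3, although the forebrain H3K4me3 peak as a whole met a lens one. At chr10:42311384-42311783 the fold was 17.4 in forebrain and 6.90 in lens, H3K4me3, H3K4me1 and H3K27me3 were called in both tissues and H3K27ac in forebrain, and the forebrain H3K27me3 island was 31800 bp long. At chr6:144997147-144997465 in forebrain (fold 14.3) and chr6:144997198-144997465 in lens (fold 7.56), Pax6, H3K4me3 and H3K27me3 were again called in both, with H3K27ac in lens only. The strongest lens peak in H3K27me3 was chrX:10062729-10063073 (fold 11.8), whose lens island held 105 ChIP and 19 control reads over 4400 bp; forebrain had Pax6, H3K4me3 and H3K27me3 there as well. The numbers of reads in these shorter islands are small.

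H3K4me3 of the other tissue covered most of the sites. Forebrain H3K4me3 overlapped 134 of the 164 lens peaks (81.7%, 74.9 to 87.3), or 187 of all 219 (85.4%), against 5.37% of the whole lens Pax6 list. Lens H3K4me3 overlapped 170 of the 193 forebrain peaks (88.1%, 82.7 to 92.3), against 5.68% of the whole forebrain list. H3K4me3 peaks without Pax6 were mostly shared too: 86.6% of the lens ones overlapped forebrain H3K4me3, and 92.1% the other way. Those shares are over whole H3K4me3 peaks, with median widths of 745 bp in lens and 736 bp in forebrain. The Pax6 peaks had median widths of 279.5 and 246 bp, so the shares are not like for like. Only 16 of 3594 lens and 31 of 3342 forebrain Pax6 peaks outside H3K4me3 of their own tissue lay at H3K4me3 of the other.

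Pax6 itself was shared less often than the mark, but more often than at other Pax6 peaks. A forebrain Pax6 peak overlapped 96 of the 164 lens peaks (58.5%, 50.6 to 66.2), or 96 of all 219 (43.8%), against 31.9% of lens Pax6 peaks outside H3K4me3 and 32.6% of the whole lens list. In the other direction a lens Pax6 peak overlapped 89 of 193 (46.1%, 38.9 to 53.4), against 34.5% outside H3K4me3 and 35.2% of the whole forebrain list. None of the 55 control-rich peaks had a forebrain Pax6 peak.

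Among the remaining marks of the other tissue, H3K27ac and polymerase lay above their shares of the whole list in both tissues. Forebrain H3K27ac overlapped 121 of the 164 lens peaks (73.8%; 73.1% of the 219; 10.5% of the whole list), and forebrain polymerase 14 (8.54%; 6.39% of the 219; 0.498% of the whole list). Forebrain H3K4me1 overlapped 81 (49.4%; 61.6% of the 219; 33.5% of the whole list), and forebrain H3K27me3 28 (17.1%; 12.8% of the 219; 13.5% of the whole list). At the 193 forebrain peaks, lens H3K27ac overlapped 124 (64.2%; 9.59% of the whole list) and lens polymerase 37 (19.2%; 1.50% of the whole list). Lens H3K4me1 overlapped 25 (13.0%), below the 37.9% of the whole list, and lens H3K27me3 27 (14.0%), near the 13.5% of the whole list.

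Calls of the same mark in both tissues were counted at each site. H3K27ac was called in both tissues at 99 of the 164 lens peaks, in lens only at 19, in forebrain only at 22 and in neither at 24. At the forebrain peaks these counts were 106 in both, 47 in forebrain only, 18 in lens only and 22 in neither. H3K27me3 was found in both tissues at 6 lens peaks, in lens only at 2 and in forebrain only at 22. At the forebrain peaks it was found in both at 21, in forebrain only at 18 and in lens only at 6. H3K4me1 was called in both tissues at 26 lens peaks, in lens only at 2 and in forebrain only at 55. At the forebrain peaks it was called in both at 21, in forebrain only at 62 and in lens only at 4. The whole lists differ in the same direction for H3K27me3, since forebrain H3K27me3 covered 13.5% and lens H3K27me3 6.06% of all lens Pax6 peaks. For H3K4me1 the whole lens Pax6 list went the other way, with 42.9% in lens H3K4me1 and 33.5% in forebrain H3K4me1. The whole forebrain Pax6 list had 37.9% and 62.5%. The H3K4me1 lists were unequal, with 20811 islands in lens and 40774 in forebrain. Calls in both tissues are not given for the whole Pax6 lists.

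Taking H3K4me3 and Pax6 of the other tissue jointly, 84 of the 164 lens peaks (51.2%) had both in forebrain, 50 (30.5%) had H3K4me3 without Pax6, 12 (7.32%) had Pax6 without H3K4me3 and 18 (11.0%) had neither. Of the 193 forebrain peaks, 82 (42.5%) had both in lens, 88 (45.6%) H3K4me3 only, 7 (3.63%) Pax6 only and 16 (8.29%) neither. At sites with H3K4me3 in both tissues, the other tissue thus had Pax6 in 84 of 134 lens cases and 82 of 170 forebrain cases. At sites without H3K4me3 in the other tissue, Pax6 was called there for 12 lens peaks and not for 18. For forebrain peaks these counts were 7 and 16. Over the whole Pax6 lists, 32.6% of lens peaks and 35.2% of forebrain peaks had Pax6 in the other tissue.

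At 82 sites a lens Pax6 peak at H3K4me3 overlapped a forebrain Pax6 peak at H3K4me3. Their summits lay close together, at a median distance of 16.5 bp and at most 138 bp. Their median fold was 7.66 in lens and 7.39 in forebrain. Over the 82 sites Spearman's rho between the folds was 0.44 and Pearson's r 0.73; without the 2 sites farthest from the median lens fold, rho was 0.40 and r 0.45, so the higher r rested on those sites. For the 1146 lens Pax6 peaks outside H3K4me3 with a forebrain partner, rho was 0.36 and r 0.40. All of these sites share the same libraries. Within each list, peaks with Pax6 in both tissues were somewhat stronger: the median fold was 7.77 for the 96 and 6.24 for the 68 others in lens, and 7.41 for the 89 and 6.19 for the 104 others in forebrain. The same held outside H3K4me3, with 7.89 and 6.61 in lens and 8.33 and 6.33 in forebrain.

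**Figure D5:**
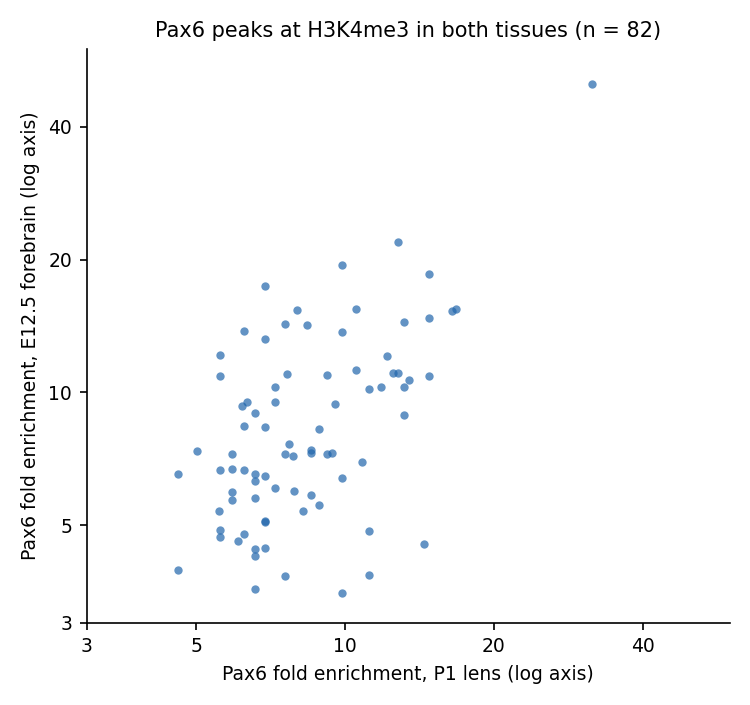
Pax6 fold enrichment in lens (x axis, log scale) and in forebrain (y axis, log scale) at the 82 sites where Pax6 and H3K4me3 were called in both tissues; each point is a site. The point at the upper right, with folds of 31.5 and 50.0, stands apart from the rest.

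That point was the strongest Pax6 peak at H3K4me3 in either tissue. It is chr5:143105115-143105587 in lens, with a fold of 31.5 and rank 18 of the lens list, and chr5:143105168-143105569 in forebrain, with a fold of 50.0 and rank 3 of the forebrain list. Its summit lay 69 bp outside the lens H3K4me3 peak chr5:143104847-143105309 and 61 bp outside the forebrain one. H3K27ac was called there in both tissues and polymerase in lens. The H3K4me3 peak was ordinary, with a fold of 8.92 in lens and 8.21 in forebrain, below the medians of 14.0 and 12.6.

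Of the other strong sites with Pax6 in both tissues, several had H3K27ac in both. At chr8:87550756-87551179 the fold was 16.4 in lens and 15.3 in forebrain, with H3K27ac and polymerase in both tissues. At chr15:97923841-97924665 it was 16.8 and 15.5, with H3K27ac in both and a FAIRE region. At chr2:126896245-126896579 it was 14.8 and 18.5, with H3K27ac in forebrain only. At chr3:108365289-108365704 it was 14.8 and 14.7, with H3K27ac in both. At chr12:112813136-112813644 it was 21.9 in forebrain and 12.8 in lens, 803 bp inside an H3K4me3 peak of 2199 bp. At chr10:79861806-79862230 it was 19.4 in forebrain and 9.86 in lens, with H3K27ac and polymerase in both.

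Some strong sites had Pax6 in 1 tissue at H3K4me3 of both. The lens peak chr12:4082819-4083202 had a fold of 18.4 and overlapped H3K27ac and H3K4me1, and forebrain had H3K4me3, H3K27ac and H3K4me1 there without a Pax6 peak. The lens peak chr15:98813867-98814255 (fold 15.1) lay at the edge of an H3K4me3 peak of 2635 bp, and forebrain had H3K4me3 and H3K27ac there without Pax6. The forebrain peak chr15:38007566-38008082 (fold 19.3) lay at H3K4me3 and H3K27ac of both tissues, and lens had no Pax6 peak. A missing call says that no peak was listed, not that Pax6 was absent.

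The 5 members at the H3K4me3 peaks of highest fold had Pax6 folds of 5.59 to 10.8 in lens and 3.57 to 7.41 in forebrain. In lens the highest H3K4me3 peak that held a member was chr6:51417265-51421902, 4638 bp wide with a fold of 38.0; the Pax6 peak chr6:51420002-51420331 in it had a fold of 10.8 and lay 1719 bp from its nearer edge, and Pax6, H3K27ac and polymerase were also called in forebrain. The next, at chr9:64020980-64021195, had an H3K4me3 fold of 32.2 and a Pax6 fold of 5.59. In forebrain the highest H3K4me3 fold at a member, 30.8, was at chr17:25410625-25410924, where the Pax6 fold was 7.24 in forebrain and 5.91 in lens. At chr18:24113135-24113351 the H3K4me3 fold was 28.8 and the Pax6 fold 3.57, near the lowest of the forebrain members.

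For 15 of the 164 lens peaks (9.15%, 5.21 to 14.6) the overlapped H3K4me3 peak met no forebrain H3K4me3 peak, and for 12 of the 193 forebrain peaks (6.22%, 3.25 to 10.6) it met no lens one. Most H3K4me3 peaks without Pax6 were shared as well: forebrain H3K4me3 met 91.3% of lens H3K4me3 peaks with Pax6 and 86.6% of those without, and lens H3K4me3 met 93.5% and 92.1% of the forebrain ones. Several of the strongest had H3K27me3 in the other tissue. The lens peak chr3:55586254-55586583 (fold 12.8) lay at an H3K4me3 peak of 4107 bp with H3K27ac, H3K4me1 and polymerase, and in forebrain the site had a Pax6 peak of fold 5.70, H3K4me1 and H3K27me3. The lens peak chr19:14672826-14673572 had a fold of 14.1 with H3K27ac, and forebrain had Pax6 at a fold of 16.2 with H3K27ac, H3K4me1 and H3K27me3. The lens peak chr19:54119073-54119503 had a fold of 14.5 with H3K4me1, and forebrain had Pax6 at 7.65 with H3K4me1 and H3K27me3. On the forebrain side, chr1:42750873-42751351 (fold 13.4) lay within an H3K4me3 peak of 1326 bp with H3K27ac, and lens had H3K27me3 and no Pax6. At chr3:34460592-34460971 (fold 13.1) lens had Pax6 at a fold of 11.8, H3K27ac, H3K4me1 and a FAIRE region but no H3K4me3.

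More generally, the lens peaks with no forebrain H3K4me3 under the Pax6 peak itself numbered 30. Of these, 13 (43.3%, 25.5 to 62.6) lay in forebrain H3K27me3 and 24 (80.0%, 61.4 to 92.3) in forebrain H3K4me1, against 17.1% and 49.4% of all 164. Of the 23 forebrain peaks with no lens H3K4me3 under them, 10 (43.5%, 23.2 to 65.5) lay in lens H3K27me3, against 14.0% of all 193, and 0 had lens polymerase (0 to 14.8%). Both subsets are small and are contained in the sets they are set against.

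The peaks nearest to the limit of 1 bp were the following. Just inside it were the lens peaks chr19:42160841-42161147 (overlap 17 bp, fold 6.24) and chr19:3912803-3913022 (21 bp, fold 6.90) and the forebrain peaks chr2:25038384-25038557 (3 bp, fold 4.80) and chr17:26011319-26011490 (4 bp, fold 5.55). Just outside it were the lens peaks chr7:25331740-25332218 (fold 15.7) and chr7:52003685-52003952 (fold 9.08), which touched H3K4me3 with a gap of 0 bp, and the forebrain peaks chr1:77502691-77503101 (fold 6.01) and chr8:109460667-109460858 (fold 5.08), both 7 bp away. Within 1000 bp of H3K4me3 without overlap lay 82 lens and 106 forebrain Pax6 peaks. The genes nearest to these positions, which are on mm9, were not analysed here.

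The RNA libraries, 1 each, described Pax6 and genes of H3K4 methylation and demethylation. These gene lists cover H3K4 methylation as a whole and not H3K4me3 alone. In forebrain Pax6 stood at 28.1 RPKM, in epithelium at 141.6 and in fibers at 24.0. The list of H3K4 methyltransferase complexes held 20 names, and 15 of them had RNA values. The other names (Mll1, Mll2, Mll3, Mll4 and Wbp7) are older symbols of genes also listed as Kmt2a to Kmt2d, which had values. Of the 15 genes, 14, 14 and 13 had at least 1 RPKM in forebrain, epithelium and fibers. Dpy30, a shared subunit of these complexes, was highest at 63.6, 44.7 and 45.3 RPKM. All 6 listed H3K4 demethylase genes had at least 1 RPKM in each library, led by Kdm1a (LSD1) at 49.4, 26.3 and 18.4 RPKM. The libraries held the markers of their labels: Tubb3, a neuronal tubulin, stood at 461, 6.23 and 4.04 RPKM in that order, and Cryaa, the lens alpha-A crystallin, at 18.2, 11819.8 and 138921 RPKM. The globin gene Hba-a1 stood at 956 RPKM in forebrain, 166 in epithelium and 2.76 in fibers. The part of such other cells in the peak lists was not tested.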

How the data were processed

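MACS2 on mm9 made the lists of Pax6, H3K4me3, H3K27ac and polymerase peaks, per the submitters' processing notes; the sources used here do not give its version, its threshold, the aligner or the control. A deposited peak has a fold ratio over control, -log10 p-values and q-values, a score and a summit. The largest q-value was 0.00966. H3K4me1 and H3K27me3 islands were called by the authors with SICER, at an FDR of 0.001 with 200 bp windows and 600 bp gaps, as the list names show. Each deposited island has read counts for ChIP and control, their scaled ratio, a p-value and an FDR. FAIRE regions were deposited without a score. RNA values are RPKM deposited by the authors, for which the submitters' processing notes name TopHat2 and Cufflinks (version 2 each) and Cuffdiff.

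Overlaps of at least 1 bp were found in Python 3.11.15 (pandas 2.3.3, scipy 1.17.1). The code matched the counts of bedtools 2.31.1 in 26 of 26 settings and was tested on simulated data. Islands with more than 10 times the median control reads per kb of their list were called control-rich. Each peak list was compared as 1 unit, with no test. The members, lists and comparisons were chosen with earlier results of these data known. Regions were named by a rule: the 5 highest by Pax6 fold, by H3K4me3 fold, with H3K27me3, with polymerase, in both tissues, with H3K4me3 in 1 tissue and by control reads, and the 2 nearest each side of the overlap limit; the text gives a choice of these. Alternatives covered overlap, gaps, stricter calls and equal lists. Coordinates are 1-based on mm9, and no sequence is printed. The 4 forebrain and 3 lens input libraries entered only through the authors' calls.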

Additional observations from a re-analysis of the deposited data

How the results depend on the processing

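Of 126 alternative values for 17 results, 102 stayed within their counting interval (counts within 1.5 times) and 24 moved. Without the control-rich peaks, the lens shares became 72.0% for H3K27ac, 17.1% for H3K4me1, 29.3% for FAIRE and 58.5% for forebrain Pax6. When both tissues kept their 15407 strongest H3K4me3 peaks, 0 control-rich lens peaks remained, and the same shares became 72.3%, 15.7%, 29.6% and 58.5%. When the shared bases had to reach 0.5 of the shorter interval, H3K27ac fell to 49.7% in lens and 68.0% in forebrain. Lens peaks with forebrain H3K4me3 fell to 78.6% and forebrain peaks with lens FAIRE to 18.4%. Control-rich peaks are included in these lens shares, and without them lens H3K27ac was 53.4%. With gaps of up to 1 kb counted as overlap, the forebrain peaks at H3K4me3 numbered 299. In lens, with the control-rich peaks (301 in all), shares with such gaps were 84.7% for H3K27ac, 52.8% for H3K4me1, 11.3% for H3K27me3, 20.6% for polymerase and 58.5% for FAIRE. For the 245 outside control-rich islands they were 86.5%, 42.0%, 13.9%, 25.3% and 49.0%. In forebrain the shares with such gaps were 88.6% for H3K27ac, 83.6% for H3K4me1, 41.5% for H3K27me3 and 41.5% for lens FAIRE. The whole lists, counted after seeing the data, then had 45.3% (H3K4me1), 8.81% (H3K27me3) and 44.3% (FAIRE) in lens. In forebrain the whole list had 66.1%, 37.0% and 36.6%. In these 3 marks the forebrain members thus went from below to above the list. For H3K27me3 and FAIRE the list's share still lay within the members' interval (35.8 to 47.3 for each). With the Pax6 summit inside H3K4me3, 92.5% of forebrain peaks had lens H3K4me3. No paired analysis was possible because each tissue and mark gave 1 list. The read depth of the lists is unknown, so a missing overlap may be a missed call.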
